A study of Mus musculus with 13 samples.

Results

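CiPSC lines 6 and 11 are chemically induced pluripotent stem cell lines, and the comparison was made between 1 RNA sequencing library of each, 2 of the 13 libraries of the series. Both lines carry the strain label C57xICR and the treatment label VC6TFMB+Z, a coded compound mix. The reference was 1 library of untreated mouse embryonic stem cells of line R1, strain 129, labelled R1 2 and called ESC replicate 4 here. All 3 cultures were kept in ESC medium on feeder layers of mitomycin C-treated mouse embryonic fibroblasts (MEF). The other libraries of the series were MEF, GFP-negative cells, GFP-positive clusters and colonies, and 3 further ESC libraries. The 2 lines and ESC replicate 4 were the 3 libraries whose values were on one scale, RPKM (reads per kilobase of transcript, scaled to the reads of the library). The other 10 libraries were on the scale of the whole gene span and served only where named. Each line had 1 library from 1 line, so differences between the lines, between cultures and between library preparations cannot be told apart, and no test was made. A gene was compared where its symbol was unique and its higher value in the 2 lines was 2 RPKM or more, which held for 7463 of 15176 genes. A difference is that of log2(RPKM + 1), line 11 minus line 6, so a negative value is a gene higher in line 6.

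Pluripotent stem cells keep a network of transcription factors switched on, with the proteins of Pou5f1, Nanog and Sox2 at its centre, and a line made from somatic cells is usually judged by how fully it has taken up that network. Mouse pluripotent cultures are also known to be mixed: a small share of cells passes in and out of a state like that of the two-cell embryo, cells at colony edges start to differentiate, and dense cultures use glycolysis heavily. Cells short of oxygen stabilise the hypoxia-inducible factors, which switch on glycolytic enzymes, glucose and lactate transporters and regulators of cell survival.

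The 2 lines were close to each other over the whole transcriptome. Of the 7463 genes, 0 differed by 1 log2 unit or more (0% in either direction). The gene farthest toward line 6 was Ndufa4l2 at -0.77, and the gene farthest toward line 11 was Rpl39l at 0.71. The median absolute difference was 0.06, the SD of the differences was 0.10, and 94.8% of genes lay within 0.2. The median difference was -0.01, a value that the scaling of each library to its own reads largely sets. Pearson's r across the genes was 0.997, as a description, since genes are not replicates.

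Against ESC replicate 4 the same measure was wider. Line 6 differed from ESC replicate 4 by 1 log2 unit or more in 203 of 7707 genes (2.63%; 97 higher and 106 lower in the line), with a median absolute difference of 0.21. Line 11 differed in 178 of 7582 genes (2.35%; 80 higher and 98 lower), with a median absolute difference of 0.19. These comparisons share the ESC library, so their likeness is no separate result. Over the 5000 genes of highest level of each pair, the log2 ratio of the 2 lines had an SD of 0.11, against 0.45 for line 6 and 0.44 for line 11 with ESC replicate 4. Pairs of libraries of 1 group on the gene-span scale were farther apart, with an SD of 0.99 for ESC replicates 1 and 2 and 0.72 for MEF replicates 1 and 2. Those libraries were quantified on another length scale.

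**Figure D1:**
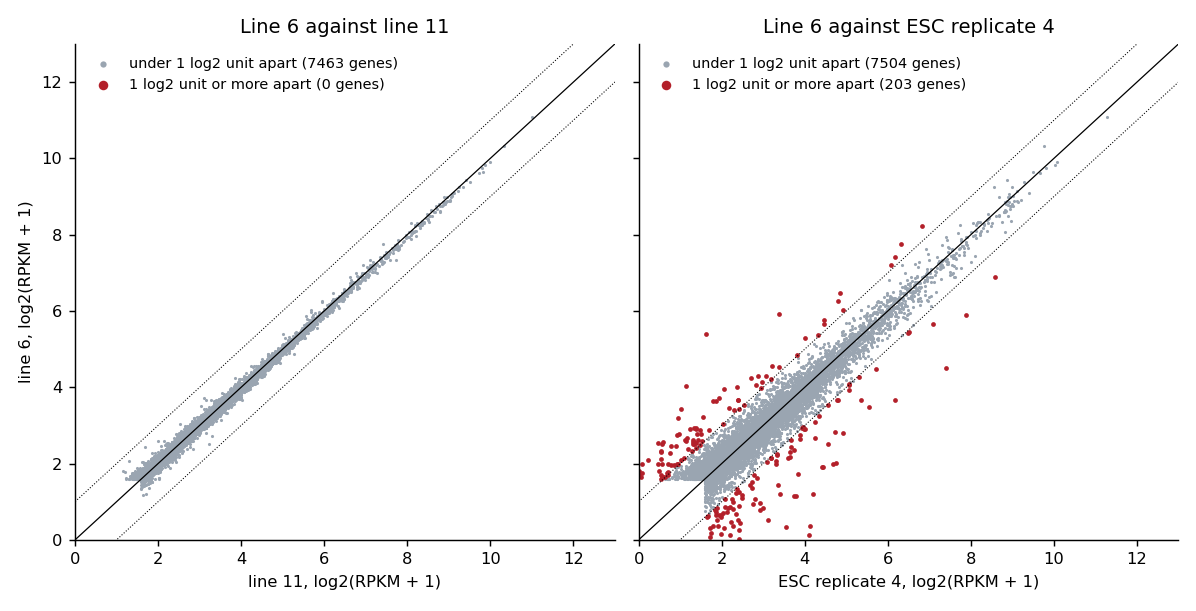
Level of each gene in line 6 (vertical axis, log2(RPKM + 1)) against line 11 (left) and against ESC replicate 4 (right), 1 point per gene, with dotted lines at 1 log2 unit. No gene of the left panel lies past the dotted lines, and 203 genes of the right panel do.

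The closeness was not that of 1 library deposited under 2 names. No gene had equal values in the 2 columns. RPKM values of the 3 libraries stand in ratios of whole numbers, from which the reads behind each gene were recovered. They gave 31.0 M reads in genes for line 6, 26.4 M for line 11 and 44.6 M for ESC replicate 4, and a median of 1891 and 1592 reads per compared gene in lines 6 and 11. Counting alone would give log2 ratios a root mean square SD of 0.06, and the observed SD was 0.13. For 2815 genes (37.7%) the 95% counting interval of the log2 read ratio did not hold 0. These exact (Clopper-Pearson) intervals cover counting error only and compare 2 libraries, not conditions.

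Because no gene reached 1 log2 unit, a lower mark of 0.3 log2 units (1.23-fold) was set after the values had been seen. It was passed by 87 genes (1.17%), 59 higher in line 6 (0.791%) and 28 higher in line 11 (0.375%). For all 87 the counting interval lay off 0, but the same reads chose the genes and gave the intervals. That count is therefore no separate support for the differences. The higher value was under 5 RPKM for 35 of the 59 and 17 of the 28, against 38.5% of all compared genes. A gene under 2 RPKM in 1 line entered only through the other, in which it was high. The direction of such a gene was partly set by the filter. Of the 59 genes higher in line 6, 27 were on one of the 41 gene lists, and 14 of them (23.7% of the 59) were on 1 list, that of glycolysis and hypoxia. Of the 28 higher in line 11, 9 were on a list, and no list held more than 2. For scale, 984 of all 15176 genes were on a list. The glycolysis and hypoxia list had 28 members among the 7463 compared genes.

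**Figure D2:**
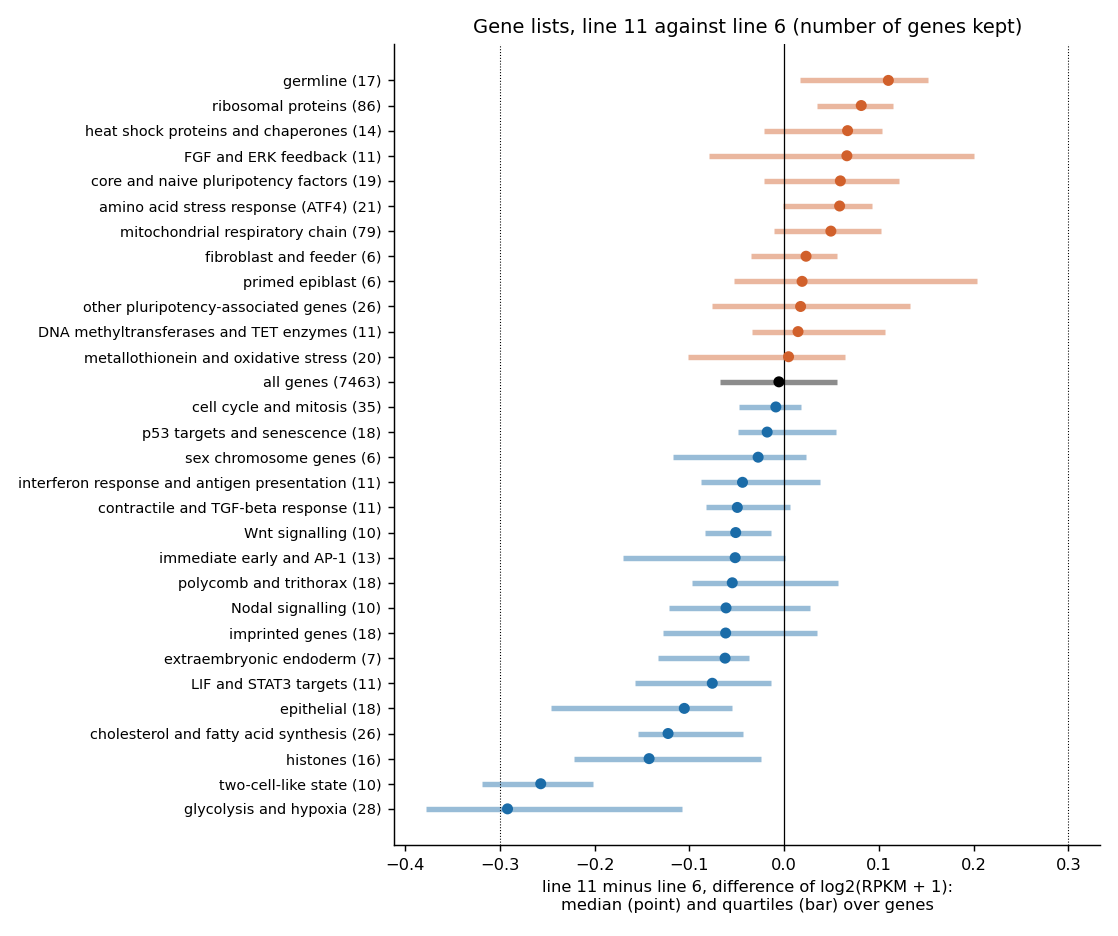
Difference of log2(RPKM + 1), line 11 minus line 6, for each gene list with at least 6 compared genes: the point is the median and the bar runs from the lower to the upper quartile over genes. The glycolysis and hypoxia list (-0.29) and the two-cell-like list (-0.26) lie farthest toward line 6, and most other lists lie within 0.15 of 0.

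Genes of glycolysis and of the response to low oxygen were lower in line 11 than in line 6. Of 28 compared members, 27 were lower in line 11, against 52.4% of all genes, and 25 had a counting interval below 0, against 20.2% of all genes. The median difference was -0.29, against -0.01 over all genes, and 14 members passed 0.3 toward line 6 and 0 toward line 11. Among those 14, P4ha1 and Ankrd37 were under 2 RPKM in line 11 and entered only through line 6. The 14 glycolytic enzymes on the list had a median of -0.23, and the other 14 members, transporters and regulators, had a median of -0.38. Summed over the list, levels were 2365 RPKM in line 6, 2133 in line 11 and 1925 in ESC replicate 4.

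The promoters of several of these genes carry the core letters of the hypoxia response element, ACGTG. Windows of 4 members are shown, chosen because they hold the letters. Windows are the 250 bases before the RefSeq gene start in GRCm38.p6, written 5′ to 3′ on the gene's strand, with ACGTG and its reverse complement CACGT in capitals; where CACGTG occurs the matches of both strands overlap and count as 2.
Bnip3, chr7:138909507-138909756, minus strand: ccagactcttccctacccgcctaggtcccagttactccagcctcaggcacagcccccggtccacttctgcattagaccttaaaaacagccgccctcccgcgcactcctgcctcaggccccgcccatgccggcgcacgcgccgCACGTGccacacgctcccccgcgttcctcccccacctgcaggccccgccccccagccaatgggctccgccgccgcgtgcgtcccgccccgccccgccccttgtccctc
Slc16a3, chr11:120948817-120949066, plus strand: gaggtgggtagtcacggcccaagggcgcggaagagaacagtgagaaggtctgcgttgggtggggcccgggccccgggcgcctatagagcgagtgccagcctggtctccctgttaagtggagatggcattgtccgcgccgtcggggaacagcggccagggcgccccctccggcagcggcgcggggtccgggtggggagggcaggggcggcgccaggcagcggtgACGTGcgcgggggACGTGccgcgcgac
Egln3, chr12:54203875-54204124, minus strand: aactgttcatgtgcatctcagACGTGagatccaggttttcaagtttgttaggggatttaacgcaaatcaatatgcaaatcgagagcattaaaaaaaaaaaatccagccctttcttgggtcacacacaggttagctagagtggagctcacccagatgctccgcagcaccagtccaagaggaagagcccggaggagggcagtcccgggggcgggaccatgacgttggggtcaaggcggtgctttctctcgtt
Ldha, chr7:46845554-46845803, plus strand: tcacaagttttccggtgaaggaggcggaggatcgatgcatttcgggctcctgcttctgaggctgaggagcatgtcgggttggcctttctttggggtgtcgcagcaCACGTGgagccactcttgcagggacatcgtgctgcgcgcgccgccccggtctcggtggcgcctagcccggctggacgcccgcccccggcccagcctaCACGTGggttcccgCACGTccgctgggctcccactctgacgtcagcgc
The Bnip3 window holds the letters once as CACGTG. The Slc16a3 window holds 2 separate copies near the start, the Egln3 window 1 copy far from it, and the Ldha window 5 matches, of which 4 lie in overlapping pairs. A second RefSeq window of Ldha holds none, nor do the windows of Gpi1, Tpi1, Pfkl and Hk1, members past 0.3 toward line 6. Of the 28 compared list members, 24 had a window in the RefSeq table, and 15 of these (62.5%) held the letters in at least 1 window. The share was 18.5% of all 27025 genes with a window and 27.5% of the 5354 with a window among the compared genes. Among members that passed 0.3 toward line 6 it was 9 of 13 (69.2%). A match is a description of the letters and says nothing of whether a factor bound there. The list was drawn up to hold genes of the response to low oxygen. Its share of these letters is therefore partly set by the choice of members and cannot speak to why the lines differed.

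The mitophagy receptor gene Bnip3, a classical target of the hypoxia-inducible factors, stood at 11.6 RPKM in line 6, 7.86 in line 11 and 4.26 in ESC replicate 4. Its difference was -0.51, from 2085 and 1198 reads, and its log2 read ratio of -0.56 had a counting interval of -0.67 to -0.46. Both lines lay above ESC replicate 4, with line 11 nearer to it, but ESC replicate 4 was the lowest ESC library for Bnip3. Converted to transcript length, Bnip3 was at 18.64, 11.96 and 6.499 RPKM in ESC replicates 1, 2 and 3. Both lines lay below ESC replicates 1 and 2 and line 6 and line 11 lay above ESC replicate 3. The largest difference on the list was that of Ndrg1, a stress-responsive gene induced by low oxygen, at 5.04 RPKM in line 6, 2.98 in line 11 and 1.86 in ESC replicate 4 (-0.60). Ddit4, which encodes an inhibitor of the growth kinase mTORC1, was at 18.1, 13.4 and 9.96 RPKM in the same order (-0.41). Ndrg1 and Ddit4 showed the order seen for Bnip3 against ESC replicate 4. Converted to transcript length, Ddit4 was at 28.05, 24.58 and 16.95 RPKM in ESC replicates 1, 2 and 3. Both lines lay below ESC replicates 1 and 2, and ESC replicate 3 lay between the lines. Ndrg1 was at 5.19, 1.74 and 2.89 RPKM in ESC replicates 1, 2 and 3. Both lines lay below ESC replicate 1 and above ESC replicates 2 and 3.

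The oxygen sensors themselves were among the members. Egln3 and Egln1 encode prolyl hydroxylases that mark the hypoxia-inducible factors for destruction and are in turn induced by them. Egln3 was at 5.06 RPKM in line 6, 3.42 in line 11 and 1.20 in ESC replicate 4 (-0.46). Egln1 was at 4.45, 3.20 and 3.88 RPKM (-0.38), so that ESC replicate 4 lay between the lines. Vegfa, the vascular growth factor, was at 3.11, 2.04 and 1.68 RPKM (-0.44), and P4ha1, a collagen prolyl hydroxylase, at 2.40, 1.60 and 1.79 RPKM (-0.38). Converted to transcript length, Egln3 was at 7.96, 4.65 and 1.83 RPKM in ESC replicates 1, 2 and 3. Both lines lay below ESC replicate 1 and above ESC replicate 3, with ESC replicate 2 between them. Vegfa was at 1.13, 0.323 and 3.79 RPKM in ESC replicates 1, 2 and 3. Both lines lay above ESC replicates 1 and 2 and below ESC replicate 3.

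Transport of sugar and lactate differed in the same direction. Slc2a1, the glucose transporter GLUT1, was at 64.3 RPKM in line 6, 50.7 in line 11 and 40.0 in ESC replicate 4 (-0.34). Slc2a3, the transporter GLUT3, was at 147.0, 121.9 and 79.7 RPKM (-0.27). For both transporters line 11 lay between line 6 and ESC replicate 4. Slc16a3, the lactate exporter MCT4, was at 10.4, 7.198 and 9.37 RPKM (-0.48), with ESC replicate 4 between the lines and nearer to line 6. Converted to transcript length, Slc2a3 was at 184.98, 187.82 and 97.01 RPKM in ESC replicates 1, 2 and 3. Both lines lay below ESC replicates 1 and 2 and above ESC replicate 3. Slc2a1 was at 45.93, 66.74 and 41.53 RPKM in ESC replicates 1, 2 and 3. Both lines lay below ESC replicate 2 and above ESC replicates 1 and 3.

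Among the enzymes the difference was smaller and uneven along the pathway. Hk1, which phosphorylates glucose, was at 6.90 RPKM in line 6, 5.24 in line 11 and 5.98 in ESC replicate 4 (-0.34). Gpi1, the next enzyme, was at 76.2, 60.6 and 53.5 RPKM (-0.32). Pfkl, a phosphofructokinase, was at 13.3, 10.6 and 11.0 RPKM (-0.30). In line 11 the levels of these 3 enzymes stood at 75.9% (Hk1), 79.6% (Gpi1) and 79.7% (Pfkl) of those in line 6. Converted to transcript length, Gpi1 was at 72.6, 90.8 and 70.8 RPKM in ESC replicates 1, 2 and 3, with line 11 below each and line 6 within them. Hk1 was at 3.09, 5.71 and 5.61 RPKM, with line 6 above each and line 11 within them. Pfkl was at 5.78, 17.2 and 10.9 RPKM, with both lines within them.

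Later steps held both shifted and unshifted enzymes. Tpi1, triosephosphate isomerase, was at 57.8 RPKM in line 6, 46.4 in line 11 and 42.2 in ESC replicate 4 (-0.31). Ldha, which makes lactate, was at 160.6, 137.0 and 160.1 RPKM (-0.23), so line 11 lay below the other 2 libraries. Gapdh, the glyceraldehyde phosphate dehydrogenase, was at 507 RPKM in line 6 and 500 in line 11 (-0.02). Pkm2, the pyruvate kinase, was at 504 and 475 RPKM (-0.08), and Pgam1 at 185 and 180 (-0.04). Pfkm, the muscle-type phosphofructokinase, was the only compared member above 0, at 10.7 and 11.2 RPKM (0.06), and its counting interval held 0. Converted to transcript length, Tpi1 was at 109.45, 74.99 and 40.48 RPKM in ESC replicates 1, 2 and 3. For Tpi1 both lines lay below ESC replicates 1 and 2 and above ESC replicate 3.

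**Figure D3:**
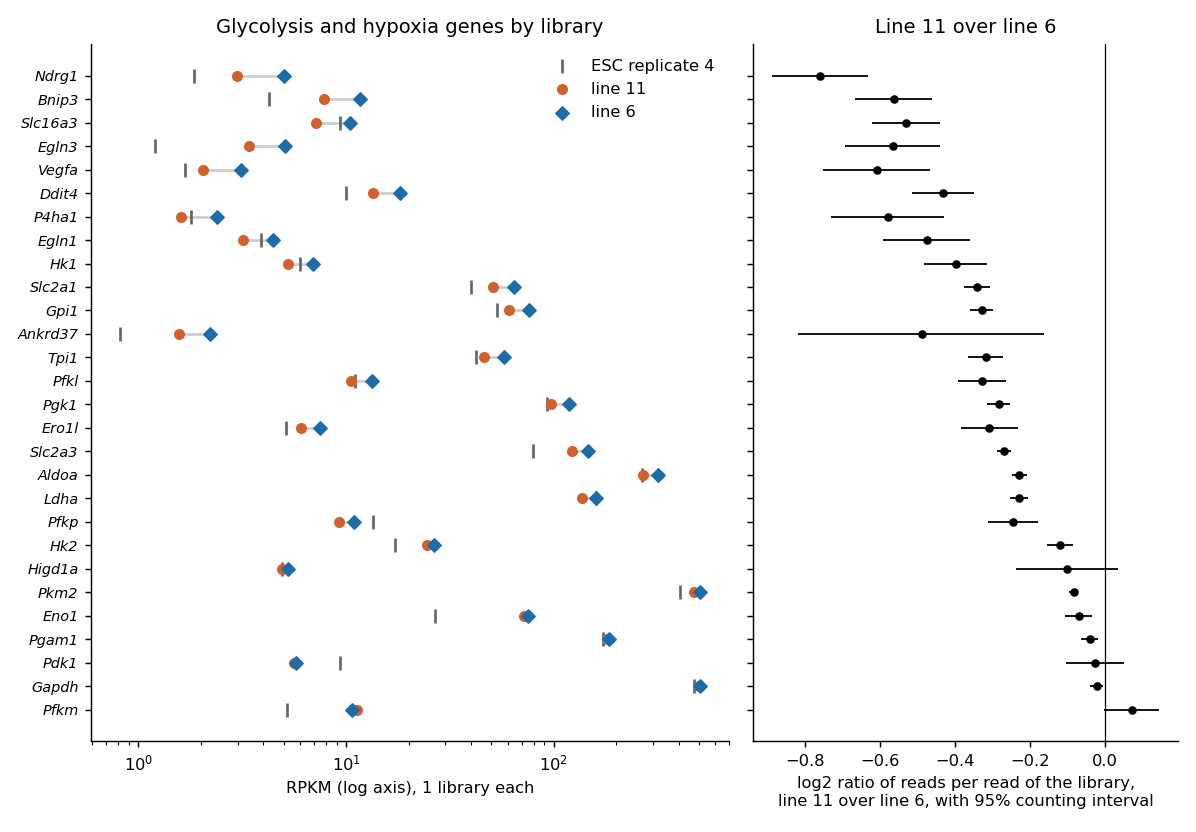
Left, RPKM (log axis) of the 28 compared glycolysis and hypoxia genes in line 6 (diamonds), line 11 (circles) and ESC replicate 4 (ticks), 1 library each, ordered by difference. Right, log2 ratio of line 11 over line 6 with its 95% counting interval, which lies below 0 for 25 genes and holds 0 for Higd1a, Pdk1 and Pfkm.

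Members under 2 RPKM, which did not enter these counts, were Adm, Car9, P4ha2, Pfkfb3 and Pfkfb4. Adm, encoding the peptide adrenomedullin, was at 1.66 RPKM in line 6 and 0.884 in line 11, with a log2 read ratio of -0.91 (-1.25 to -0.57, 234 and 106 reads). Car9, the carbonic anhydrase often used as a marker of low oxygen, was close to absent, at 0.080 and 0.024 RPKM from 16 and 4 reads. Of the 33 members in the table, 32 had a log2 read ratio below 0, against 56.3% of all 15176 genes. Pfkm was the exception.

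Several genes outside the list, singled out after their values were seen, stood beside these. Ndufa4l2, a mitochondrial complex-associated gene induced by low oxygen, had the most negative difference, at 3.20 RPKM in line 6, 1.46 in line 11 and 1.96 in ESC replicate 4. By reads its log2 ratio was -1.13 (-1.44 to -0.83). It was 1 of 2 compared genes more than 2 times apart by reads, where no pseudocount enters. Krt8 was the other, and both genes entered the comparison only through line 6. Bhlhe40, encoding a transcriptional repressor that low oxygen induces, was at 12.1, 7.63 and 2.83 RPKM (-0.60). Its relative Bhlhe41 was low throughout, at 0.310, 0.130 and 0.053 RPKM. Aldoc, an aldolase, was at 3.85, 2.79 and 2.44 RPKM (-0.36), and Pgm2, a phosphoglucomutase, at 7.13, 4.77 and 4.88 RPKM (-0.50).

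The label of pluripotent cells was checked against marker genes, and both lines carried high levels of pluripotency genes and little fibroblast collagen. Pou5f1, the gene of the factor Oct4, was at 246 RPKM in line 6, 258 in line 11 and 239 in ESC replicate 4. Nanog was at 112, 98.5 and 87.8 RPKM in the same order. Dnmt3l and Gm4340 were present in both lines, and the fibroblast gene Col1a1 was under 1 RPKM in both. Of the lists of other cell types, all 38 Hox and patterning genes were under 1 RPKM in both lines, as were 16 of 19 mesendoderm, 13 of 18 neural, 8 of 10 endothelial, 8 of 9 keratinocyte, 5 of 5 adipocyte, 8 of 15 trophoblast, 12 of 21 extraembryonic endoderm, 7 of 10 macrophage and blood, and 10 of 14 muscle genes. The share over all 15176 genes was 39.8%. Single members of these lists were well expressed in both lines. Apoe, a lipid carrier on the endoderm list, was at 168 RPKM in line 6 and 161 in line 11, and Mylpf, a myosin light chain on the muscle list, at 63.6 and 68.5. Laptm5 (blood list), Sparc (endoderm), Stmn2 and Tubb3 (neural) and Sfn (keratinocyte) lay between 15.6 and 32.8 RPKM in line 6.

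The core and naive pluripotency factors differed little. All 19 in the table were compared, and their median difference was 0.06. Pou5f1 differed by 0.07 and Sox2, at 38.1 RPKM in line 6 and 39.8 in line 11, by 0.06. Esrrb, a nuclear receptor of the naive network, was at 50.3 and 49.7 RPKM (-0.02), and Tbx3 at 11.96 and 11.98. Nanog was the member farthest toward line 6, at -0.18, followed by Klf4 at 30.1 and 27.1 RPKM (-0.14). Myc, a growth regulator, was the 1 member past 0.3, at 1.85 RPKM in line 6, 2.59 in line 11 and 4.59 in ESC replicate 4 (0.33, from 454 and 540 reads). Myc entered the comparison only through line 11. Zfp42, the gene of the stem cell marker Rex1, was at 49.3 and 53.7 RPKM in the lines and at 135.1 in ESC replicate 4, so both lines lay below the reference by more than they differed.

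Among pluripotency-associated genes outside the core, Lin28a, which encodes an RNA-binding protein that blocks let-7 maturation, was at 23.9 RPKM in line 6, 29.4 in line 11 and 24.6 in ESC replicate 4 (0.29). L1td1, an RNA-binding protein gene of stem cells, was at 46.3, 56.0 and 70.01 RPKM (0.27). Dppa5a, among the most abundant stem cell transcripts, was at 694 and 687 RPKM in the lines (-0.02). The list as a whole had a median of 0.02, which turned negative when each library was scaled by its median ratio.

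The list of DNA methyltransferases and TET enzymes did not shift as a whole. Of 11 compared members 7 were higher in line 11 (47.6% of all genes). In each direction 1 passed 0.3 (0.375% of all genes toward line 11 and 0.791% toward line 6). The median of 0.01 turned negative when each library was scaled by its median ratio. The 3 de novo methylation genes, grouped here after their values were seen, were each higher in line 11. Dnmt3l, which encodes the catalytically inactive partner of the de novo methyltransferases, was at 28.5 RPKM in line 6, 37.5 in line 11 and 15.96 in ESC replicate 4 (0.38). Its log2 read ratio was 0.40 (0.34 to 0.45), from 5282 and 5903 reads. Dnmt3b, a de novo methyltransferase, was at 16.4, 19.9 and 10.1 RPKM (0.27). Dnmt3a, the other one, was at 3.44, 3.997 and 4.79 RPKM (0.17). For Dnmt3l and Dnmt3b both lines lay above ESC replicate 4 and line 11 was the farther, whereas for Dnmt3a both lay below it. ESC replicate 4 was the lowest ESC library for Dnmt3l and Dnmt3b. Converted to transcript length, Dnmt3l was at 32.3, 27.2 and 25.7 RPKM in ESC replicates 1, 2 and 3, and Dnmt3b at 47.0, 48.8 and 27.6. For Dnmt3l, line 6 lay within these values and line 11 above them. For Dnmt3b both lines lay below them.

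Maintenance and removal of the mark differed less. Dnmt1, the maintenance methyltransferase, was at 27.2 RPKM in line 6 and 26.1 in line 11 (-0.06), and its partner Uhrf1 at 62.1 and 63.3 (0.03). Tet1, which oxidises methylcytosine, was at 17.3 and 16.5 RPKM (-0.07), and Tet2 at 6.53 and 6.75 (0.04). Gadd45b, a stress gene placed on this list for its reported link to demethylation, was the 1 member past 0.3 toward line 6, at 9.69, 7.63 and 4.34 RPKM in line 6, line 11 and ESC replicate 4.

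Most transcripts of the two-cell-like state were lower in line 11, and 9 of 10 were above ESC replicate 4 in both lines (49.3% of all genes). Of 10 compared genes 9 were lower in line 11 (52.4% of all genes), each with a counting interval below 0 (20.2% of all genes). The median was -0.26, and 4 passed 0.3 toward line 6 (0.791% of all genes). Gm4340, a marker of that state, was at 41.3 RPKM in line 6, 31.4 in line 11 and 2.09 in ESC replicate 4 (-0.39; 5311, 3428 and 385 reads). The Zscan4 genes encode zinc finger proteins that define the state. Zscan4c was at 8.14, 6.32 and 0.915 RPKM (-0.32) and Zscan4f at 9.75, 7.95 and 1.03 RPKM (-0.27).

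ESC replicate 4 was the lowest ESC library for Gm4340 and the Zscan4 genes. Converted to transcript length, Gm4340 was at 17.6, 9.93 and 15.0 RPKM in ESC replicates 1, 2 and 3, and Zscan4c at 3.68, 1.69 and 5.13. Both lines were above these values of Gm4340 and Zscan4c too, by less than they were above ESC replicate 4. For Zscan4b and Zscan4e this held for line 6 only. Line 11 lay just below ESC replicate 3 there, at 3.657 against 3.819 RPKM for Zscan4b and 3.571 against 3.585 for Zscan4e.

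The 5 Zscan4 genes had a median difference of -0.31, while line 6 stood 2.06 and line 11 stood 1.75 log2 units above ESC replicate 4 at the median. They are near-identical copies, so reads may be split or shared among them and the members are not separate observations. In a bulk library a smaller share of cells in the state and less RNA per such cell cannot be told apart. Eif1a, the 1 member higher in line 11, was at 24.4 RPKM in line 6, 26.1 in line 11 and 31.0 in ESC replicate 4, and is expressed in most cells.

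Epithelial genes also lay toward line 6. Of 18 compared, 17 were lower in line 11 (52.4% of all genes) and 8 had a counting interval below 0 (20.2% of all genes); the median was -0.11. Krt8 and Krt18, which encode the paired keratins of simple epithelia and rank among the first keratins of the embryo, were the most different. Krt8 was at 2.51 RPKM in line 6, 1.22 in line 11 and 1.70 in ESC replicate 4 (-0.66), and its log2 read ratio was -1.05 (-1.30 to -0.80). Krt18 was at 2.45, 1.29 and 0.956 RPKM (-0.59). Krt8 and Krt18 passed the filter of 2 RPKM only through line 6, which favoured a negative difference. Both keratins were low transcripts in all 3 libraries. Converted to transcript length, ESC replicate 3 held more, at 6.70 RPKM for Krt8 and 10.2 for Krt18. ESC replicates 1 and 2 held less of each than either line.

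The junction genes were closer. Cldn6, a claudin of tight junctions, was at 5.89 RPKM in line 6, 4.56 in line 11 and 0.956 in ESC replicate 4 (-0.31). ESC replicate 4 was the lowest ESC library for Cldn6. Converted to transcript length, it was at 7.34, 3.89 and 8.57 RPKM in ESC replicates 1, 2 and 3, and both lines lay within these values. Cdh1, the gene of E-cadherin, was at 31.0 and 28.7 RPKM in the lines (-0.11), and Epcam at 15.2 and 14.5 (-0.07). Elf3, an epithelial transcription factor named by its difference, was at 22.5, 17.7 and 8.25 RPKM (-0.33). Converted in the same way, Elf3 was at 11.2, 11.7 and 10.7 RPKM in ESC replicates 1, 2 and 3, below both lines. Anxa2, a membrane-binding protein gene singled out after its value was seen, was at 4.39, 2.22 and 5.88 RPKM (-0.74).

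Some fibroblast collagen and contractile genes, which the feeder layers could contribute, were rare in both lines and rarer in line 11. The list of contractile and TGF-beta response genes as a whole differed little. Of its 11 compared members 8 were lower in line 11 (52.4% of all genes), and the median was -0.05. In each direction 1 passed 0.3 (0.791% of all genes toward line 6 and 0.375% toward line 11). Flna, an abundant member, was at 28.8 RPKM in line 6 and 27.0 in line 11. The genes given next were singled out after their values were seen, apart from the marker Col1a1. Col1a1, the chain of type I collagen, gave 0.717 RPKM in line 6 (345 reads), 0.183 in line 11 (75 reads) and 6.58 in ESC replicate 4 (4535 reads), a log2 read ratio of -1.97 between the lines (-2.35 to -1.60). Col1a2, its partner chain, gave 150, 11 and 1439 reads, and Acta2, smooth muscle actin, 222, 48 and 3207 reads. Thbs1, thrombospondin, gave 157, 38 and 9164 reads. For these 4 genes ESC replicate 4 was the highest, line 6 intermediate and line 11 the lowest.

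A set of 72 genes at least 16 times higher in MEF than in ESC replicates 1 to 3, chosen without the lines, summed to 145 RPKM in line 6, 133 in line 11 and 214 in ESC replicate 4. These sums held 0.106%, 0.0983% and 0.181% of the recovered reads. Of the 72, 57 had a log2 read ratio below 0 (56.3% of all genes), and the median was -0.23, against -0.03 over all genes. On the fibroblast and feeder list 27 of 35 genes were under 1 RPKM in both lines (39.8% of all genes). On that list 25 of 35 had a ratio below 0 (56.3% of all genes), and the median ratio was -0.39. The 6 members of that list at 2 RPKM or more include genes that stem cells also express. Their median difference was 0.02, with 4 higher in line 11 (47.6% of all genes). The list summed to 152 RPKM in line 6, 150 in line 11 and 241 in ESC replicate 4. Fn1, fibronectin, was at 54.7, 47.2 and 46.8 RPKM (-0.21) and Vim, an intermediate filament gene, at 41.6, 48.0 and 89.3 RPKM (0.20). Of the 87 genes past 0.3, 1 (Tagln) was in the set of 72. The part of feeder RNA in the other differences was not tested.

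**Figure D4:**
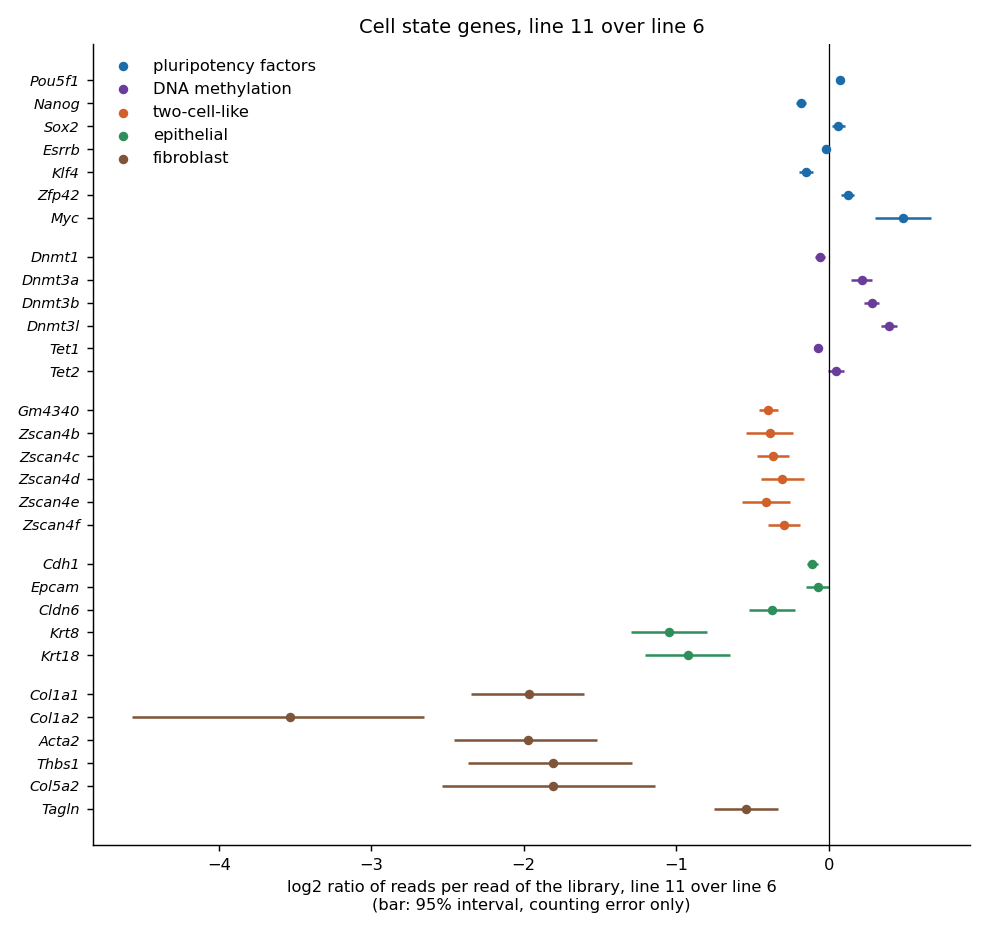
Log2 ratio of line 11 over line 6 (horizontal axis) with its 95% counting interval for selected genes of 5 classes, 1 library per line. Pluripotency factors lie near 0 apart from Myc (0.49), Dnmt3l lies at 0.40, the two-cell-like genes lie between -0.41 and -0.30, and Col1a1 lies at -1.97.

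Genes under 2 RPKM were examined apart, since the pseudocount compresses them. Of 4183 such genes with 100 reads or more in the lines together, 15 (0.359%) were 2 times or more apart by reads with a counting interval off 0, 11 higher in line 6 and 4 higher in line 11. Of the 11, 4 belonged to the fibroblast-enriched set of 72. The 4 higher in line 11 were Pde2a, Mlana, Cacng4 and Ido2, all at 104 reads or fewer in line 11. Ido2, an enzyme of tryptophan breakdown, gave 34 reads in line 6 and 75 in line 11.

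Line 11 was higher in a scattered set of genes. Rpl39l, a ribosomal protein paralog used in the germline, was at 4.73 RPKM in line 6, 8.38 in line 11 and 22.7 in ESC replicate 4 (0.71; 389 and 586 reads). Tmsb10, an actin-sequestering thymosin, was the most abundant gene past 0.3 in this direction, at 160, 213 and 125 RPKM (0.41). Gemin4, a subunit of the complex that assembles spliceosomal particles, was at 8.95, 11.4 and 16.2 RPKM (0.31). Stmn1, a microtubule destabiliser, was at 66.6, 80.9 and 70.8 RPKM (0.28), and Rrs1, a ribosome assembly factor, at 10.1, 12.5 and 14.4 (0.28). Line 11 was the nearer to ESC replicate 4 for Rpl39l, Gemin4 and Rrs1 and the farther for Tmsb10 and Stmn1. Converted to transcript length, Rpl39l was at 5.71, 5.54 and 4.92 RPKM in ESC replicates 1, 2 and 3. Line 6 lay below these values and was the nearer to each, and line 11 lay above them. For Tmsb10 line 6 was also the nearer to each. For Gemin4, Rrs1 and Stmn1 line 11 was the nearer to ESC replicates 1 and 2 and line 6 to ESC replicate 3.

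Signal feedback and immune genes added a few members. Spry4, which encodes an inhibitor of FGF signalling, was at 1.57 RPKM in line 6, 2.45 in line 11 and 5.63 in ESC replicate 4 (0.42). H2-T23, a non-classical class I molecule, was at 1.998, 3.07 and 2.52 RPKM (0.44), and Ddx58, the RNA sensor RIG-I, at 1.78, 2.50 and 2.66 RPKM (0.33). Spry4, H2-T23 and Ddx58 entered the comparison only through line 11, H2-T23 by a narrow margin. Ier3, a stress gene on the feedback list, lay the other way at 3.44, 2.60 and 2.17 RPKM (-0.30). The list medians were small: 0.07 for FGF and ERK feedback and -0.04 for interferon response and antigen presentation.

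Ribosomal protein genes showed a small shift shared by most members. Of 86 compared (kinases that share the Rps prefix left out), 75 were higher in line 11, against 47.6% of all genes, and the median was 0.08. Rplp1, a stalk protein, was at 781 RPKM in line 6 and 846 in line 11 (0.12), while Rplp0 was at 605 and 601 (-0.01). Respiratory chain genes had a median of 0.05. The median length was 801 bases for all ribosomal genes compared and 772 for respiratory chain genes, against 2678 over all compared genes. Short genes as such lay toward line 11: the median difference was 0.04 in the shortest sixth of genes by length and -0.03 in the longest. With a running median over length subtracted, an alternative added after seeing the data, the list median went from 0.08 to 0.03 for all ribosomal genes and from 0.05 to 0.02 for the respiratory chain.

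Lipid synthesis and histone genes lay slightly toward line 6. Of 26 compared genes of cholesterol and fatty acid synthesis 23 were lower in line 11 (52.4% of all genes), with a median of -0.12; Fdps, which makes farnesyl pyrophosphate, was at 31.5 and 28.7 RPKM (-0.13). The 16 compared histone genes had a median of -0.14, and it was -0.18 with the length trend subtracted. Cell cycle genes were even, with a median of -0.01 over 35 genes; Pcna, the replication clamp, was at 107 and 113 RPKM (0.08). Lars2, a mitochondrial leucyl-tRNA synthetase, was the most abundant gene past 0.3, at 214 RPKM in line 6, 170 in line 11 and 78.2 in ESC replicate 4 (-0.33).

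The reference did not single out 1 line. No gene differed by 1 log2 unit, so none could be assigned to the line that departs under the rule. Line 6 lay farther from ESC replicate 4 in 4503 of 7463 genes (60.3%), in 49 of the 59 genes past 0.3 toward line 6 and in 22 of the 28 past 0.3 toward line 11. In 41 of the 59 both lines were above ESC replicate 4, against 49.3% of all compared genes, and in 16 of the 28 both were below it, against 40.9%. With ESC replicates 1 to 3 as the reference, their values converted to transcript length, line 6 was the farther in 3536 of 7399 genes (47.8%), in 20 of 59 and in 18 of 27. The line nearer to ESC thus depended on which ESC libraries were used, and the direction for the 59 genes turned.

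By chromosome the lines were level with each other. A chromosome was found for 98.9% of genes, and medians of line 11 minus line 6 ran from -0.02 on chromosome 9 to 0.01 on chromosome X over the 20 chromosomes with 50 compared genes or more. Against ESC replicate 4 the lines shared an uneven pattern. The median was -0.27 for line 6 and -0.28 for line 11 over 415 genes of chromosome 8, and -0.13 for both over 643 genes of chromosome 11. On the other chromosomes it ran from 0.00 on chromosome 18 to 0.12 on chromosome 6. The 2 lines share this reference library, so the pattern is not seen independently in each, and its cause was not tested.

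**Figure D5:**
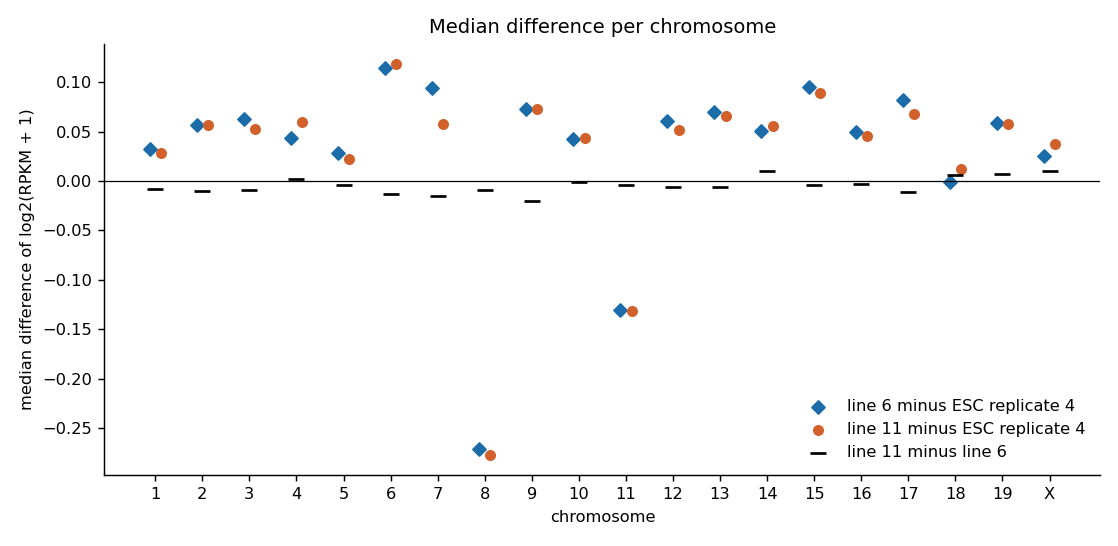
Median difference of log2(RPKM + 1) over the genes of each chromosome for line 6 minus ESC replicate 4 (diamonds), line 11 minus ESC replicate 4 (circles) and line 11 minus line 6 (dashes). The dashes stay between -0.02 and 0.01, and both sets against ESC replicate 4 are lowest on chromosome 8 (-0.27 and -0.28) and next lowest on chromosome 11 (-0.13).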

How the data were processed

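RNA sequencing values of 13 mouse libraries were analysed, grouped by their labels. Per the file headers, the deposited table gives RPKM; per the submitters' processing notes, TopHat 1.3.0 and mm9 are named. Counting tool, annotation, filters and use of strand: not given in the sources used here. Of 15184 rows, 8 sharing the symbol Ptprf were left out. The lines, lists and lower mark were chosen with earlier results of these data known.

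In the 3 libraries on transcript length, ratios between columns are ratios of whole numbers. Reads per gene were recovered as the smallest whole numbers in that ratio, multiplied by a factor where the implied length was otherwise not whole (tolerance 0.03 bases) or far from the gene's transcript lengths in GENCODE M21 (18.1% of genes). Before any factor, the implied length was whole for 92.6% of the genes above a minimum of reads in line 11. A missed factor makes reads too few and intervals too wide, a wrongly added one the reverse. The length trend also uses the implied lengths, which ran down to 11 bases among compared genes, so wrong lengths enter it. No gene had 0 reads in any of the 3 libraries; genes outside the table were not analysed here. The recovery was tested on simulated data.

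Differences are of log2(RPKM + 1) with no scaling between libraries; a filter kept genes at 2 RPKM or more in either line. The text names the 5 markers and the 12 genes with the largest difference in each direction at 10 RPKM or more. Of these, 6 are given only here. They are 1500012F01Rik (-0.39), Gm6404 (0.37), Gm10247 (0.37), Pla2g1b (0.34), Gm9531 (0.27) and Gm14535 (0.27). It also names up to 2 most abundant members of some lists, and further list members and genes chosen after their values were seen. Alternatives were other pseudocounts, filters, scalings and references, and those added later: the mark of 0.3, the read ratio, the length trend and the low genes. Chromosomes and promoter windows came from GRCm38 tables matched by symbol, not from mm9. Python 3.11.15, numpy 2.4.6, pandas 2.3.3, scipy 1.17.1 and matplotlib 3.10.9 were used.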

Additional observations from a re-analysis of the deposited data

How the results depend on the processing

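No paired analysis was possible because each line had 1 library. The count of genes 1 log2 unit or more higher in line 11 was 0 in every alternative tried but 1, and became 1 with a pseudocount of 0.1 RPKM and no filter. The count higher in line 6 became 1 with a pseudocount of 0.1, 2 by the read ratio, and 16 with a pseudocount of 0.1 and no filter. At 0.3 log2 units the count higher in line 11 (28) became 59 with a pseudocount of 0.1, 11 at 5 RPKM or more, 64 by the read ratio and 382 with a pseudocount of 0.1 and no filter. The count higher in line 6 (59) became 124, 24, 137 and 916 under the same settings, and 92 with no filter. These follow from how far the pseudocount compresses low genes and how many genes enter. With ESC replicates 1 to 3 as the reference, the share of genes past 0.3 for which line 6 lay farther went from 83.1% to 33.9% (higher in line 6) and from 78.6% to 66.7% (higher in line 11); the cause was not tested.

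The glycolysis and hypoxia count past 0.3 was 13 to 15 in the alternatives. All 132 alternative list medians moved by less than the spread over genes, and 5 of 33 lists changed sign. For the 27 genes that are markers or among the 12 largest differences in each direction, all 108 alternative values kept their direction; other named genes were not recomputed, and differences under 0.02, the log2 shift applied in scaling by the median ratio, have no firm sign. Depth limits genes of few reads; without a second library per line no value has a replicate check.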

Other observations

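Imprinted genes are often checked in induced lines. Of 41 measured members, 18 were compared, 11 were lower in line 11 (52.4% of all genes), and 8 had a counting interval below 0 (20.2% of all genes) and 1 above it (17.6%). The median difference was -0.06, and 0 passed 0.3, where 1.17% of all genes did. Mest, an imprinted hydrolase gene, was at 26.3 RPKM in line 6, 29.3 in line 11 and 22.0 in ESC replicate 4 (0.15). Peg10, derived from a retrotransposon, was at 10.7, 9.19 and 5.65 RPKM (-0.20).

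Germline genes had a median of 0.11 over 17 compared genes. Tuba3a, a testis tubulin, was the 1 member past 0.3, at 5.99 RPKM in line 6, 7.92 in line 11 and 29.4 in ESC replicate 4 (0.35). Its near-identical relative Tuba3b was at 0.435, 0.652 and 7.72 RPKM, so reads may be shared between them. Piwil2, a piRNA pathway gene, was at 3.06, 3.56 and 1.42 RPKM (0.17).

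Ipp stood far above ESC replicate 4 in both lines, at 15.2 RPKM in line 6 and 14.5 in line 11 against 1.19, and differed by -0.06 between them.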
